A study of Mus musculus with 120 samples.

Results

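Motor thalamus was compared between its ventromedial nucleus (VM) and its ventrolateral nucleus (VL) in the mouse. The comparison held every library whose title gave VM or VL as the nucleus, DiI as the tracer and primary motor cortex (M1) as the injected region, which were 12 of the 120 libraries of the series, 6 of VM and 6 of VL. The series profiled projection neurons of 22 thalamic nuclei as bulk RNA-seq of small pools of hand-picked fluorescent cells. DiI is a lipophilic dye that travels back along axons, so each pool held neurons whose axons reached M1. Both groups were wild type by the deposited metadata, and the labels of both record viral labelling of axons from the substantia nigra pars reticulata (SNr) and the deep cerebellar nuclei (DCN). Ages were recorded without a unit, as 95 to 112 for VM (1 library without an age) and 87 to 163 for VL.

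VM and VL relay subcortical motor signals to the cortex. VM is known as a main target of the inhibitory output of the basal ganglia, which includes the SNr, and its axons spread through superficial cortical layers over a wide territory. VL is known as a main target of the excitatory output of the cerebellum, and its axons reach the middle layers of motor cortex. Both are glutamatergic nuclei, and relay neurons in them fire either single spikes or bursts, depending on membrane potential.

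Total counts per library were 18196669 to 24285986 in VM and 15380685 to 20615055 in VL, and 12737 to 14355 genes were detected in VM and 12980 to 14081 in VL. Pools held 29 to 70 cells in VM and 27 to 51 in VL. Each library was counted as 1 sample. The counts of all 30 pairs within groups differed by 96.7 times the degrees of freedom or more by chi-square. That is spread beyond counting error and does not tell whether libraries are independent. The libraries were not balanced over amplification dates. VM libraries 1 and 2 were amplified on a date with no VL library, VL libraries 1 and 2 on a date with no VM library, and the other 8 on 1 shared date. Replicate numbers 4, 5 and 6 came from the same 3 animals in both nuclei, and VL libraries 2 and 3 each pooled cells of 2 animals. The animal of VM library 3 was 1 of those pooled in VL library 2, so comparisons within animals used the 3 animals with an unpooled library of each nucleus, and 1 of those in VL library 3 was recorded with another genotype in a VA library. The animal of VM library 4 and VL library 4 was recorded as male, but its libraries had Xist at 1132 and 704 CPM. CPM are reads of a gene scaled to library size, counts-per-million. Y-linked genes were at 0.617 and 0.338 CPM in these libraries. A VA library of another animal recorded as male had Xist at 1176 CPM, whereas 69 other libraries recorded as male had 6.72 CPM or less. The pooled VL library 3, recorded as F and M, had Xist at 964 CPM and Y-linked genes at 0.650 CPM.

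Both groups carried the markers of thalamic relay neurons. Slc17a6, the vesicular glutamate transporter of the thalamus, was at 671, 902 and 1136 CPM (lowest, median and highest library) in VM and at 699, 899 and 973 CPM in VL, with overlapping ranges. The summed level of 9 relay neuron markers was 14938 to 24774 CPM in VM and 22600 to 27939 CPM in VL. Slc1a2 and Slc4a4, the 2 members measured of a list of 10 astrocyte markers, summed to 2435 to 4659 CPM in VM and 1616 to 2263 CPM in VL. Slc1a2, a glutamate transporter that neurons also transcribe, made up most of that sum, and it was higher in VM (log2 fold change 0.82, SE 0.19, edgeR adjusted p = 0.00505). Gfap, Aqp4 and the other astrocyte markers were not among the genes tested, so they cannot show how much astrocyte RNA was present. Of 11 oligodendrocyte markers 10 were measured, and their sum was 11.5, 50.9 and 608.5 CPM in VM (lowest, median, highest) and 9.59, 34.2 and 243.7 CPM in VL. Mog, Mag and Cldn11 were at 0 in 4 of the 6 libraries of each nucleus. The sum was highest in VM libraries 2 and 4 and VL library 2. Microglial markers (3 of 10 measured) summed to 3.52 to 50.4 CPM in VM and 1.92 to 22.2 CPM in VL, with C1qc at 0 in all 12. The precursor marker Olig1, the only one of 6 measured, reached 20.2 CPM in VM and 0.551 CPM in VL and was at 0 in 2 VM and 3 VL libraries. Inhibitory neuron markers (3 of 9 measured) summed to 0.0496 to 6.68 CPM in VM and 2.94 to 28.3 CPM in VL, and no endothelial marker was among the genes measured. The part of these cells in the results was not tested. Because each pool is bulk RNA, fewer cells expressing a gene and less of its RNA per cell cannot be told apart.

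Adgrg6, Cacna1e, Rorb and Pcdh9, chosen as marks of this contrast with results of these libraries known, did not overlap between the nuclei: Adgrg6 and Cacna1e on the VM side and Rorb and Pcdh9 on the VL side. The 250 bases before their most upstream listed starts, and those of Syt2, a gene of vesicle release, are given from RefSeq on mm10 (GRCm38.p6). Their levels separated all libraries of the nuclei, as did those of other genes, and Rorb encodes a DNA-binding receptor. Windows of Pvalb and Cplx2, among those others, were scanned too but are not printed. Capitals mark 3 motifs on either strand: AGGTCA, the half-site that nuclear receptors of the ROR family and many others bind; TCAAGGTCA, an extended form that contains it; and GGGCGG, the GC box of many promoters, which overlaps neither.
Adgrg6, chr10:14545037-14545286, minus strand: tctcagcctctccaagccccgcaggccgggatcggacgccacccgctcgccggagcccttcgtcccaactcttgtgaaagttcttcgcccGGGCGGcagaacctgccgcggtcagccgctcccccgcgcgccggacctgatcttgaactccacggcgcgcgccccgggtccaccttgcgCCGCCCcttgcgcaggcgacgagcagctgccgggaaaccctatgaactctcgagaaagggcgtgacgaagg
Cacna1e, chr1:154725921-154726170, minus strand: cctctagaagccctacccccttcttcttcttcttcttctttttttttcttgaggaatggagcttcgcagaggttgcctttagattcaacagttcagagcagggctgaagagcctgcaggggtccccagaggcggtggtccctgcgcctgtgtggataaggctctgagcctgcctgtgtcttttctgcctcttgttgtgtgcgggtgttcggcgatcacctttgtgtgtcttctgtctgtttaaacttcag
Rorb, chr19:19111197-19111446, minus strand: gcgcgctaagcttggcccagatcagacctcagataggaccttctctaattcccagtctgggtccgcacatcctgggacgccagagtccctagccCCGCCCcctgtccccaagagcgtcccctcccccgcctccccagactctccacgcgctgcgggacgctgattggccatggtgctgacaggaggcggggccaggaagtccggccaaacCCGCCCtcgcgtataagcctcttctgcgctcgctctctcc
Pcdh9, chr14:93890680-93890929, minus strand: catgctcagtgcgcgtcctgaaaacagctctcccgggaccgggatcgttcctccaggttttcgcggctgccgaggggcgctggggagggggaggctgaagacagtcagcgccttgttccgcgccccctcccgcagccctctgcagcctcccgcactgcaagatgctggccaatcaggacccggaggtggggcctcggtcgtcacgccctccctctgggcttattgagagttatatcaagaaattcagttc
Syt2, chr1:134646362-134646611, plus strand: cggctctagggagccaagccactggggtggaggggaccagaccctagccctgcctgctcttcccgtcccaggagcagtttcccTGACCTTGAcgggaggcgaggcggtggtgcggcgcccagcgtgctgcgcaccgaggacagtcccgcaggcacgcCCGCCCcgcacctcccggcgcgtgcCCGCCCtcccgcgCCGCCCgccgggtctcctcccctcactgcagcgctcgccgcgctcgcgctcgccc
The Syt2 window held TCAAGGTCA once, on the strand opposite the gene at position 84 from the left end, and the GC box 3 times. Rorb and Adgrg6 held the GC box 2 times each and no AGGTCA, and Cacna1e, Pcdh9, Pvalb and Cplx2 held none of the 3. By the GENCODE annotation, Cacna1e starts at 154884501 and Adgrg6 at 14545659, both on the minus strand. Their windows thus lay inside the genes as annotated there. Over windows of the same length AGGTCA occurred in 14% of all 32851 promoters, 10.6% of the 12305 promoters of genes tested, 5.53% of the 199 of genes higher in VM and 13.9% of the 72 of genes lower in VM. TCAAGGTCA occurred in 0.387% of all promoters, 0.268% of those tested, 0 of the 199 higher in VM and 1 of the 72 lower. The GC box occurred in 32.7% of all promoters, 55.8% of those of genes tested, 51.3% of those of genes higher in VM and 50% of those of genes lower in VM. The 199 promoters came from 137 genes and the 72 from 52, so genes with several listed starts counted more than once. Called genes without a matched promoter were left out. All these motif counts are matches of letters in a window and say nothing on binding.

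Adgrg6, an adhesion G protein-coupled receptor known from Schwann cell myelination, was detected in every VM library, at 9.95, 16.4 and 34.5 CPM (lowest, median, highest). In VL it had 1 read in 1 library and none in the other 5, and the highest value was 0.0678 CPM. The ratio of the summed counts, 2153 in VM and 1 in VL, scaled to library size, was 1875 with a 95% counting interval of 336 to 74085, which covers counting error only. Cacna1e, the pore of the R-type calcium channel, was at 30.3, 76.7 and 347.5 CPM in VM and at 0.301, 0.529 and 3.16 CPM in VL. The lowest VM library was thus above the highest VL library for both genes. The log2 fold changes, VM over VL, were 10.00 (SE 1.46) for Adgrg6 and 6.77 (SE 0.78) for Cacna1e, with edgeR adjusted p of 6.01e-07 and 1.91e-10.

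Rorb, a retinoid-related orphan nuclear receptor that acts as a transcription factor, was at 78.5, 138 and 226.5 CPM in VM and at 953, 1167 and 1324 CPM in VL. Pcdh9, a protocadherin of neuronal adhesion, was at 198, 246 and 292.6 CPM in VM and at 714, 1034 and 1152 CPM in VL. Neither gene's ranges overlapped, and the VM levels lay within a narrow band for Pcdh9. Rorb was lower in VM by a log2 fold change of -3.03 (SE 0.29, edgeR adjusted p = 6.19e-14) and Pcdh9 by -2.02 (SE 0.21, edgeR adjusted p = 9.9e-13), the smallest adjusted p-values among the genes lower in VM. In the 3 animals with an unpooled library of each nucleus, the log2 difference was -4.02, -3.55 and -3.35 for Rorb and -2.41, -2.03 and -2.35 for Pcdh9, against 6.99, 8.12 and 6.48 for Adgrg6 and 5.66, 9.68 and 7.09 for Cacna1e. These 4 genes kept their calls under all alternatives tried, including the 8 libraries of the shared date alone.

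**Figure D1:**
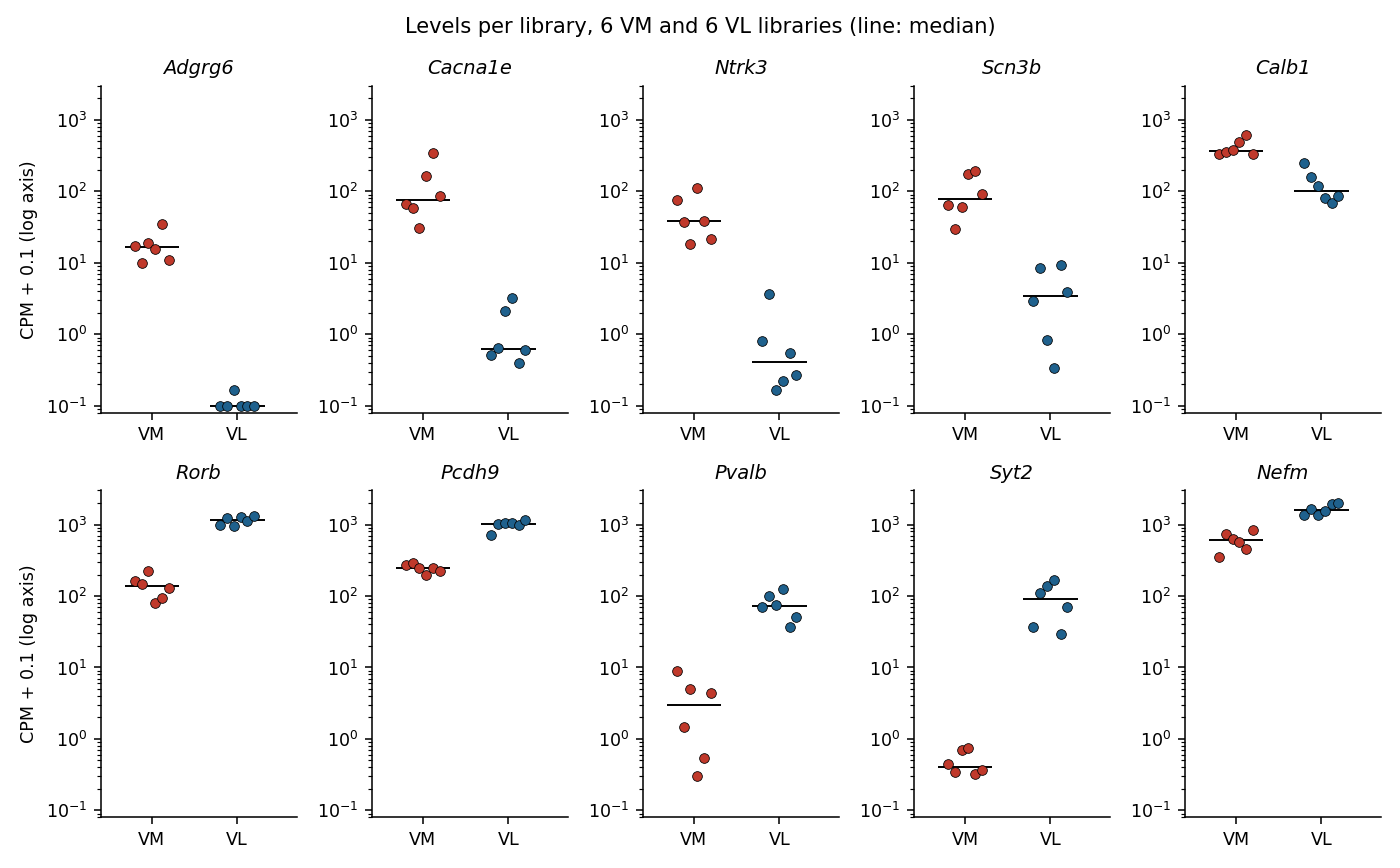
Levels of 10 genes in CPM plus 0.1 (log axis) in the 6 VM and 6 VL libraries, 1 point per library, with a line at the median of each group. In every panel all VM points lie on one side of all VL points, above them in the upper row (Adgrg6, Cacna1e, Ntrk3, Scn3b, Calb1) and below them in the lower row (Rorb, Pcdh9, Pvalb, Syt2, Nefm).

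Across all genes, 280 of 16527 were called at an adjusted p under 0.05, which is 1.69% of those tested. VM was higher in 201 genes (1.22%) and lower in 79 (0.478%). Library ranges did not overlap for 345 genes, called or not (2.09%), and for 114 of the genes higher in VM and 50 of those lower. The median absolute log2 fold change was 2.61 among genes higher in VM and 1.33 among genes lower in VM, and 90 of 201 and 22 of 79 differed at least 8-fold. The median over all genes tested was 0.000601. In each of the 3 animals with an unpooled library of each nucleus, 182 of the 201 and 69 of the 79 differed in the called direction. On the shared date alone, 160 of the 280 were called, in a fit of 8 libraries that called 269 genes (2.19% of those it tested). That fit tested 12279 genes, and some of the 280, such as Calb2 and Chrm1, were not among them and counted as not called. The libraries of both subsets were among those that gave the calls, so neither count is independent of the calls. Date and nucleus cannot be told apart in the other 4 libraries.

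**Figure D2:**
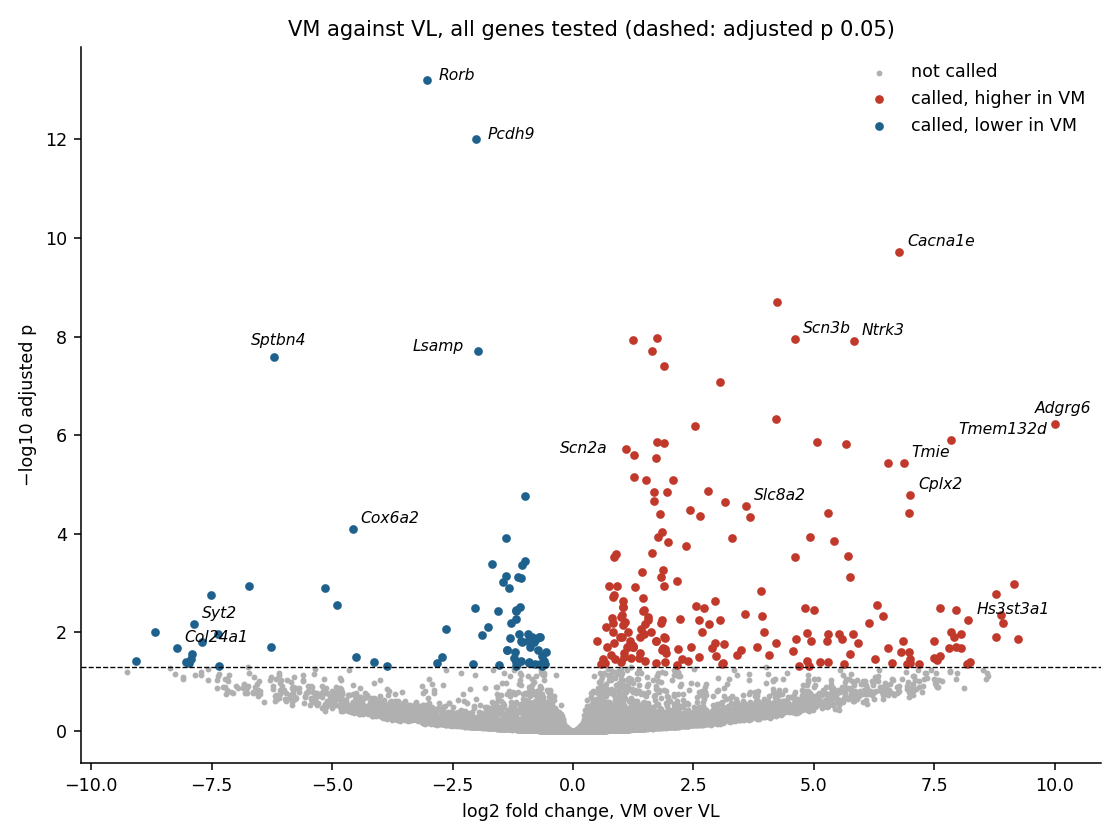
Log2 fold change, VM over VL (horizontal axis), against the negative log10 of the edgeR adjusted p (vertical axis) for the 16527 genes tested, with the threshold of 0.05 dashed. The 201 called genes higher in VM are spread out to a log2 fold change of 10.00 (Adgrg6), and the 79 lower in VM include Rorb and Pcdh9 at the top.

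The largest changes on the VM side included receptors, secreted factors and membrane proteins. Ntrk3, the receptor for neurotrophin-3, was at 18.5, 38.1 and 109.7 CPM in VM and at 0.0678, 0.310 and 3.59 CPM in VL (log2 fold change 5.83, SE 0.76, edgeR adjusted p = 1.21e-08). Fgf10, a secreted fibroblast growth factor, was at 11.4, 18.2 and 54.6 CPM in VM and at 0, 0.175 and 1.49 CPM in VL (5.80, SE 1.43, edgeR adjusted p = 0.0108). Slit1, a secreted ligand of Robo receptors in axon guidance, was at 5.92, 14.8 and 75.2 CPM in VM and at 0, 0.172 and 2.39 CPM in VL (5.28, SE 1.30, edgeR adjusted p = 0.0111). All 3 genes had ranges that did not overlap. Tmie, a protein of the mechanotransduction complex of inner ear hair cells, was at 16.2 to 52.7 CPM in VM and 0.0499 to 1.19 CPM in VL. Tmem132d, a transmembrane protein, was at 1.69 to 45.6 CPM in VM and 0 to 0.179 CPM in VL. Hs3st3a1, an enzyme that sulphates heparan sulphate, was at 2.28 to 21.6 CPM in VM and had 3 reads in all over the VL libraries. The amino acid transporter Slc7a3 was at 7.91 to 22.7 CPM in VM and 0 to 1.65 CPM in VL, and Prr36 was at 6.60 to 76.3 CPM in VM and 0 to 1.13 CPM in VL. All of these kept their calls when any 1 of the 12 libraries was left out.

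On the VL side, Dio2, the deiodinase that activates thyroid hormone, was at 0, 0.0797 and 0.793 CPM in VM and at 11.9, 26.7 and 119.5 CPM in VL (log2 fold change -7.52, SE 1.60, edgeR adjusted p = 0.00173). St3gal1, a sialyltransferase, was at 0 to 4.99 CPM in VM and 32.9 to 63.6 CPM in VL (-4.90, SE 1.08). Aldoc, an aldolase of glycolysis, was at 16.4, 35.0 and 51.2 CPM in VM and at 105, 208 and 277 CPM in VL (-2.64, SE 0.64, edgeR adjusted p = 0.00864). Tcf4, a basic helix-loop-helix transcription factor, was at 21.6 to 76.0 CPM in VM and 140 to 287 CPM in VL (-2.04, SE 0.46, edgeR adjusted p = 0.00325). These 4 genes kept their calls without any 1 library. Aldoc is also known from astrocytes, of which the markers measured are given above. Cox6a2, a cytochrome c oxidase subunit known from muscle and from some neurons, was at 0 to 8.24 CPM in VM and 8.62 to 96.5 CPM in VL (-4.57, SE 0.83). With the 12 libraries alone its edgeR adjusted p was 0.00916. Within those 12 it was 0.0913 with recorded sex as a term and 0.0571 without the animal whose recorded sex went against Xist. In the fit with the sex term, the pooled VL libraries 2 and 3 each had their own level and did not inform the comparison. Col24a1, a fibrillar collagen, was at 0 to 0.317 CPM in VM and 6.73 to 79.5 CPM in VL (-8.22, SE 2.17, edgeR adjusted p = 0.0207) and missed the threshold without VM library 1, 2, 4 or 5.

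Calcium channels and calcium handling differed in both directions. Counts for lists, here and below, stand beside 1.69% called of all genes tested and 2.19% on the shared date alone. The lists were chosen with earlier results known, so these counts do not test a family. Of 19 high-voltage calcium channel genes tested, 2 were higher in VM (Cacna1e and Cacng4) and none was lower, and the list median was 0.28. Cacng4, an auxiliary subunit that also accompanies AMPA receptors, was at 137, 173 and 380.5 CPM in VM and at 29.3, 35.1 and 78.6 CPM in VL (log2 fold change 2.22, SE 0.52, edgeR adjusted p = 0.00536). The T-type channel Cacna1g, which carries the thalamic burst current, was at 281 to 379 CPM in VM and 303 to 469 CPM in VL, with overlapping ranges and an adjusted p of 0.992. Neither T-type gene tested was called, nor any of 6 HCN pacemaker channels and partners. Of those 6, 1 was called lower in VM on the shared date alone, and 1 without VM libraries 2 and 4. Among 14 pumps and exchangers 2 were higher in VM and 2 lower. Slc8a2, a sodium-calcium exchanger, was at 32.4, 67.7 and 98.5 CPM in VM and at 0.413, 5.42 and 10.1 CPM in VL (3.59, SE 0.62, edgeR adjusted p = 2.78e-05). Slc24a2, a potassium-dependent exchanger, was at 1027, 1780 and 2887 CPM in VM and at 3226, 3820 and 5272 CPM in VL (-1.07, SE 0.22, edgeR adjusted p = 0.000806). The 2 exchangers thus differed in opposite directions with no overlap between nuclei.

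Of 19 calcium-binding proteins tested, 4 were higher in VM and 1 was lower (26.3% called, against 1.69% of all genes tested). The list median was 0.57. Their summed level overlapped, at 9234 to 12549 CPM in VM and 8664 to 11089 CPM in VL. Calb1, calbindin, was at 329, 367 and 624 CPM in VM and at 68.6, 102 and 250.2 CPM in VL (log2 fold change 1.71, SE 0.44, edgeR adjusted p = 0.0153). Pvalb, parvalbumin, was at 0.198, 2.85 and 8.72 CPM in VM and at 37.1, 71.6 and 126 CPM in VL (-4.51, SE 1.24, edgeR adjusted p = 0.0317). Necab1, a neuronal calcium-binding protein, was at 349.8 to 1092 CPM in VM and 6.01 to 158 CPM in VL (2.82, SE 0.67, edgeR adjusted p = 0.0068). None of the 3 overlapped between nuclei. Pvalb lost its call without VM library 2, 3, 4, 5 or 6 or VL library 2 or 4, and Calb1 without VM library 5 or VL library 4, 5 or 6. On the shared date alone the adjusted p was 8.45e-05 for Calb1 and 0.00396 for Pvalb. Calb2, calretinin, was called at low levels, at 0.0529 to 8.88 CPM in VM and 0 to 0.177 CPM in VL, and not without VM library 4 or with edgeR's newer dispersion method (adjusted p = 0.542).

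Among 11 sodium channel genes tested, 3 were higher in VM and none lower, with a list median of 0.03. Scn3b, the β3 subunit, was at 30.0, 78.0 and 196 CPM in VM and at 0.238, 3.34 and 9.12 CPM in VL (log2 fold change 4.60, SE 0.59, edgeR adjusted p = 1.1e-08). Scn2a, the pore of Nav1.2, was at 474 to 888 CPM in VM and 237 to 344 CPM in VL (1.10, SE 0.17, edgeR adjusted p = 1.94e-06). Scn4b, the β4 subunit known for resurgent sodium current, was at 18.2, 23.7 and 36.5 CPM in VM and at 133, 210 and 304 CPM in VL, with no overlap. Its log2 fold change was -3.08 (SE 1.11) and its adjusted p 0.159 with all 120 libraries in the fit, so it was not called. With the 12 libraries alone the adjusted p was 1.34e-07, and on the shared date alone 2.77e-05.

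Of 34 voltage-gated potassium channel genes, 1 was higher in VM and 4 were lower (14.7% called, against 1.69% of all genes tested). Kcnd3, the Kv4.3 channel of the A-type current, was at 53.5, 149 and 202 CPM in VM and at 257, 312 and 425 CPM in VL (log2 fold change -1.18, SE 0.27, edgeR adjusted p = 0.00541). Kcnc1, a Kv3 channel of fast-spiking neurons, was at 366 to 700.2 CPM in VM and 712 to 1105 CPM in VL (-0.73, SE 0.19, edgeR adjusted p = 0.0224), and it lost its call without VM library 1 or 5 or VL library 4, 5 or 6. Both genes had ranges that did not overlap. On the shared date alone 1 of the list was higher in VM and 6 were lower, in a fit that called 2.19% of its genes. None of 8 calcium- and sodium-activated and none of 14 leak and inward rectifier potassium channel genes was called. With the 12 libraries alone 1 of the 8 was called, higher in VM, in a fit that called 2.83% of its genes. None of the 14 was called there, and none of either list on the shared date alone.

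Of 20 GABA and glycine receptor genes, which carry fast and slow inhibition, 5 were higher in VM and none was lower (list median 0.35). That was 25% called, against 1.69% of all genes tested. Gabrg3 was at 47.9, 67.4 and 160 CPM in VM and at 1.25, 6.72 and 26 CPM in VL (log2 fold change 2.94, SE 0.64, edgeR adjusted p = 0.00229). Gabra5 was at 13.1 to 34.8 CPM in VM and 0.0678 to 7.74 CPM in VL (2.39, edgeR adjusted p = 0.0378). Gabrg1 and Glra3 were called at low levels, with VM medians of 2.55 and 0.973 CPM and VL medians of 0 CPM for both. The adjusted p of Gabrg1 was 0.149 with the 12 libraries alone, 0.112 with the replicate number as a block, 0.105 on the shared date and 0.169 in the 3 animals with the animal as a block, so its call was lost in each. Glra3, a glycine receptor subunit, overlapped between nuclei. Gabrg3 had an adjusted p of 0.0527 without the animal whose recorded sex went against Xist. On the shared date alone 4 of the list were higher in VM, in a fit that called 2.19% of its genes. Without VM libraries 2 and 4, those with the most oligodendrocyte marker RNA, 2 were higher, in a fit that called 1.77% of its genes.

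Glutamate receptor subunits differed in both directions: of 17 ionotropic genes, 2 were higher in VM and 2 lower, and the list median was 0.17. Grin2d, an NMDA receptor subunit, was at 100.2, 142 and 246 CPM in VM and at 10.2, 43.5 and 92.6 CPM in VL (log2 fold change 1.83, SE 0.43, edgeR adjusted p = 0.00648). Grin2a, another NMDA receptor subunit, was at 264, 347 and 476 CPM in VM and at 664, 702 and 1006 CPM in VL (-1.11, SE 0.25, edgeR adjusted p = 0.00311). Neither subunit overlapped between nuclei. The AMPA receptor subunit Gria1 was at 76.0 to 246 CPM in VM and 22.6 to 101 CPM in VL (1.5, SE 0.42, edgeR adjusted p = 0.0378), and Gria3 was at 140.3 to 438 CPM in VM and 415 to 755 CPM in VL (-1.19, SE 0.27, edgeR adjusted p = 0.00374). On the shared date alone the 2 genes higher in VM were not called (Grin2d 0.0725, Gria1 0.0954) and the 2 lower were. Gria1 also lost its call without VM library 1, 3 or 6 or VL library 2, 4, 5 or 6. Among 7 metabotropic receptors Grm5 was called, at 190 to 495 CPM in VM and 104 to 236 CPM in VL (1.01, SE 0.23), and its adjusted p was 0.208 on the shared date.

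Other transmitter receptors were mostly not called. Htr7, a serotonin receptor coupled to Gs, was at 23.0, 39.5 and 78.6 CPM in VM and at 4.34, 7.60 and 12.2 CPM in VL (log2 fold change 2.45, SE 0.64, edgeR adjusted p = 0.02), the 1 of 6 serotonin receptors called. It lost the call without VM library 4 or VL library 3, 4 or 6, and had an adjusted p of 0.00396 on the shared date. Chrm1, the M1 muscarinic receptor, ran from 0 to 31.7 CPM in VM with a median of 0.340 CPM and had 1 read in VL. It was the 1 of 6 acetylcholine receptors called (8.79, SE 1.86, edgeR adjusted p = 0.00168), but not with edgeR's newer dispersion method (adjusted p = 0.081). Of 11 dopamine, histamine and adrenergic receptors Drd5 alone was called, lower in VM (edgeR adjusted p = 0.0106). Drd5 was at 0 to 0.0549 CPM in VM and 0 to 10.4 CPM in VL, and lost its call without VL library 6. None of 17 peptide, opioid and cannabinoid receptor genes was called, at a list median of 1.64, although their summed level was 332 to 633 CPM in VM and 147 to 205 CPM in VL, without overlap. In that list, picked after the values were seen, the µ opioid receptor Oprm1 was at 107 to 246 CPM in VM and 28.9 to 75.9 CPM in VL (adjusted p = 0.19), and the VIP receptor Vipr2 at 75.5 to 209 CPM in VM and 10.6 to 57.0 CPM in VL (adjusted p = 0.107). On the shared date alone 2 of the list were called, both higher in VM.

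The vesicle release machinery also differed in both directions. Among 31 genes 2 were higher in VM and 3 lower, with a list median of 0.16. Cplx2, complexin 2, was at 2.54, 13.8 and 92.1 CPM in VM and at 0.1, 0.209 and 0.407 CPM in VL (log2 fold change 7.0, SE 1.18, edgeR adjusted p = 1.65e-05). Cplx1, complexin 1, was at 362, 599.7 and 779 CPM in VM and at 1149.6, 1246 and 1768 CPM in VL (-1.19, SE 0.27, edgeR adjusted p = 0.00354). Both complexins, which clamp and promote vesicle fusion, thus separated the libraries, in opposite directions, although Cplx2 was not called by limma-voom with the animal as a random block (adjusted p = 0.109). Syt2, synaptotagmin 2, a fast calcium sensor for release, was at 0.220, 0.302 and 0.645 CPM in VM and at 29.7, 90.0 and 167 CPM in VL (-7.87, SE 1.87, edgeR adjusted p = 0.0067). Vamp1, a vesicle SNARE, was at 43.5 to 245 CPM in VM and 291 to 623 CPM in VL (-1.38, SE 0.37, edgeR adjusted p = 0.0226), and lost its call without VM library 4 or 5 or VL library 6. None of 5 vesicular transporters was called, and Slc17a7 was at 53.9 to 211 CPM in VM and 124 to 457 CPM in VL (adjusted p = 0.736, and 0.0229 on the shared date).

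Adhesion molecules were called in both directions. Of 10 protocadherins 3 were higher in VM and Pcdh9 was lower, 4 of the 31 synaptic adhesion molecules were higher and 1 lower, and 5 of 32 immunoglobulin adhesion molecules were higher and 1 lower. The shares called were 40%, 16.1% and 18.75%, against 1.69% of all genes tested. The list medians were 1.11, 0.30 and 0.27. Chl1, a member of the L1 family, was at 252, 342 and 499 CPM in VM and at 45.2, 108 and 193 CPM in VL (log2 fold change 1.72, SE 0.27, edgeR adjusted p = 2.88e-06). Ncam1, the neural cell adhesion molecule, was at 246, 361 and 591 CPM in VM and at 78.9, 130 and 192 CPM in VL (1.51, SE 0.25, edgeR adjusted p = 7.97e-06). Tenm1, a teneurin, was at 697 to 1275 CPM in VM and 325 to 414 CPM in VL (1.27, SE 0.21, edgeR adjusted p = 7.24e-06), while Tenm2 was at 78.6 to 190 CPM in VM and 240.2 to 335 CPM in VL (-1.15, SE 0.23, edgeR adjusted p = 0.000763). Lsamp, the limbic system associated membrane protein, was at 55.9, 89.4 and 121 CPM in VM and at 170, 338 and 476 CPM in VL (-1.96, SE 0.26, edgeR adjusted p = 1.94e-08). None of these 5 overlapped between nuclei. Negr1, related to Lsamp, was higher in VM with slight overlap (1.88, SE 0.29, edgeR adjusted p = 1.41e-06). The classical cadherin Cdh8 was at 108 to 225 CPM in VM and 34.8 to 85.6 CPM in VL (1.88, SE 0.39, edgeR adjusted p = 0.00114). Nlgn1, a neuroligin of excitatory synapses, was at 99.5 to 218 CPM in VM and 42.0 to 72.8 CPM in VL (1.46, SE 0.33, edgeR adjusted p = 0.00374). The counts higher and lower on the shared date alone were 1 and 1, 3 and 1, and 5 and 1, and without VM libraries 2 and 4 they were 3 and 1, 2 and 1, and 5 and 2. Of the protocadherins higher in VM, Pcdh10 and Pcdh19 had adjusted p of 0.0831 and 0.095 on the shared date, and Pcdh8 lost its call without VM library 4, 5 or 6 or VL library 1, 2, 3, 4 or 6. In the 3 animals with the animal as a block, Tenm2 had a log2 fold change of -0.81 and an edgeR adjusted p of 0.104.

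Of 43 axon guidance genes 5 were higher in VM and 2 lower (16.3% called, against 1.69% of all genes tested). Plxnc1, a semaphorin receptor, was at 69.9, 133 and 235 CPM in VM and at 20.7, 35.2 and 52.2 CPM in VL (log2 fold change 1.97, SE 0.37, edgeR adjusted p = 0.000149). Robo2, a receptor for Slit ligands, was at 70.0 to 155 CPM in VM and 13.6 to 73.4 CPM in VL (1.88, SE 0.47, edgeR adjusted p = 0.0124), with 1 VL library inside the VM range, and lost its call without VL library 6. Ligand Slit1 and receptor Robo2 were thus both higher in VM. Plxna4, another plexin, was at 57.5 to 283 CPM in VM and 233 to 399 CPM in VL (-1.12, SE 0.28, edgeR adjusted p = 0.0111) and lost its call without VM library 4 or 5. Its adjusted p was 0.054 with the 12 libraries alone and 0.209 without VM libraries 2 and 4. In the matrix list, Col25a1, a membrane collagen, was at 129, 379.7 and 456 CPM in VM and at 32.3, 61.4 and 100.5 CPM in VL (2.43, SE 0.42, edgeR adjusted p = 3.27e-05). Matrix genes were called 2 times in each direction among 22.

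Neurofilaments, the intermediate filaments of large axons, were lower in VM. Their 3 subunits Nefl, Nefm and Nefh summed to 876, 1457 and 1944 CPM in VM and to 2570.5, 3259 and 3873 CPM in VL, without overlap. Nefm was at 351, 599.6 and 852 CPM in VM and at 1367, 1589 and 1985 CPM in VL (log2 fold change -1.45, SE 0.30, edgeR adjusted p = 0.000935). Nefh was at 134, 193 and 395 CPM in VM and at 416, 719 and 808 CPM in VL (-1.55, SE 0.35, edgeR adjusted p = 0.00374), and Nefl at 369 to 709 CPM in VM and 787 to 1080 CPM in VL (-0.69, edgeR adjusted p = 0.0443). All 3 subunits had ranges that did not overlap. Gap43, a growth cone protein, was higher in VM, at 380 to 1107 CPM against 247 to 394 CPM in VL (1.05, SE 0.23, edgeR adjusted p = 0.00311), and its adjusted p was 0.0609 without VM libraries 2 and 4. In this list of 20 genes 1 was higher in VM and 4 were lower, but the fourth, Sptbn4, rested on VL library 1, which had 19599 CPM. The other libraries had 24.3 to 89.8 CPM in VM, and the VL median was 54.1 CPM. Without VL library 1 its log2 fold change was -0.34.

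Transcription factors beyond Rorb showed smaller differences. Of 15 nuclear receptors Rorb alone was called, and of 35 homeobox and thalamic factors 3 were higher in VM and none lower. Tcf7l2, a Wnt effector of thalamic neurons, was at 1846, 2451 and 2945 CPM in VM and at 813, 1431 and 1807 CPM in VL (log2 fold change 0.90, SE 0.17, edgeR adjusted p = 0.00026), without overlap, but had an adjusted p of 0.0721 on the shared date. Etv1, an ETS factor, was at 269 to 646 CPM in VM and 48.4 to 174 CPM in VL (1.84, SE 0.49, edgeR adjusted p = 0.0233) and lost its call without VM library 2 or 5 or VL library 5. Gbx2, a homeobox gene of the embryonic thalamus, was at 2.97 to 47.9 CPM in VM and 2.86 to 51.9 CPM in VL.

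Second messenger enzymes were called 3 times in each direction among 27 genes. None was higher and 2 were lower on the shared date alone, and with the 12 libraries alone 1 was higher and 2 were lower. Pde1a, a calmodulin-dependent phosphodiesterase called higher in VM, had an adjusted p of 0.121 on the shared date and lost its call without VM library 4 or 5 or any 1 VL library. Pde4b, a cAMP phosphodiesterase, was at 166, 238 and 446 CPM in VM and at 34.0, 54.7 and 156 CPM in VL (log2 fold change 1.85, SE 0.34, edgeR adjusted p = 9.16e-05), with an adjusted p of 0.0551 on the shared date. Pde3a, another phosphodiesterase, was at 0, 0.0454 and 0.744 CPM in VM and at 1.83, 18.4 and 63.7 CPM in VL (-6.73, SE 1.40, edgeR adjusted p = 0.00114). Adcy8, a calcium-stimulated adenylyl cyclase, was called higher through VM library 2, at 3741 CPM. Without that library its log2 fold change was 0.03. None of 13 RGS proteins was called with all 120 libraries. On the shared date alone 1 was called, lower in VM, and with the 12 libraries alone 1, also lower. Those fits called 2.19% and 2.83% of their genes.

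Subunits of oxidative phosphorylation had lower summed levels in VM, with few single calls. Their summed level was 7489, 8429 and 9861 CPM in VM and 10726, 12128 and 15604 CPM in VL, without overlap. The list median of 73 genes was -0.61, set beside 0.000601 for all genes tested, and 5 of 73 had a log2 fold change above 0. Only Cox7b and Ndufa4 were called, both lower in VM (2.74% called, against 1.69% of all genes tested). Neither was called on the shared date alone, where none of the list was. Ndufa4 was at 129, 164 and 257 CPM in VM and at 261, 338 and 515 CPM in VL (log2 fold change -1.08, SE 0.30, edgeR adjusted p = 0.0378). With the 12 libraries alone 9 of the list were lower in VM, in a fit that called 2.83% of its genes. Cox7b lost its call without VM library 1 or 5 or VL library 4, and Ndufa4 without VM library 1, 2, 3, 4 or 5 or VL library 1, 2 or 4. None of 12 immediate early genes was called, and Egr1 was at 67.5 to 231 CPM in VM and 89.7 to 277 CPM in VL.

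**Figure D3:**
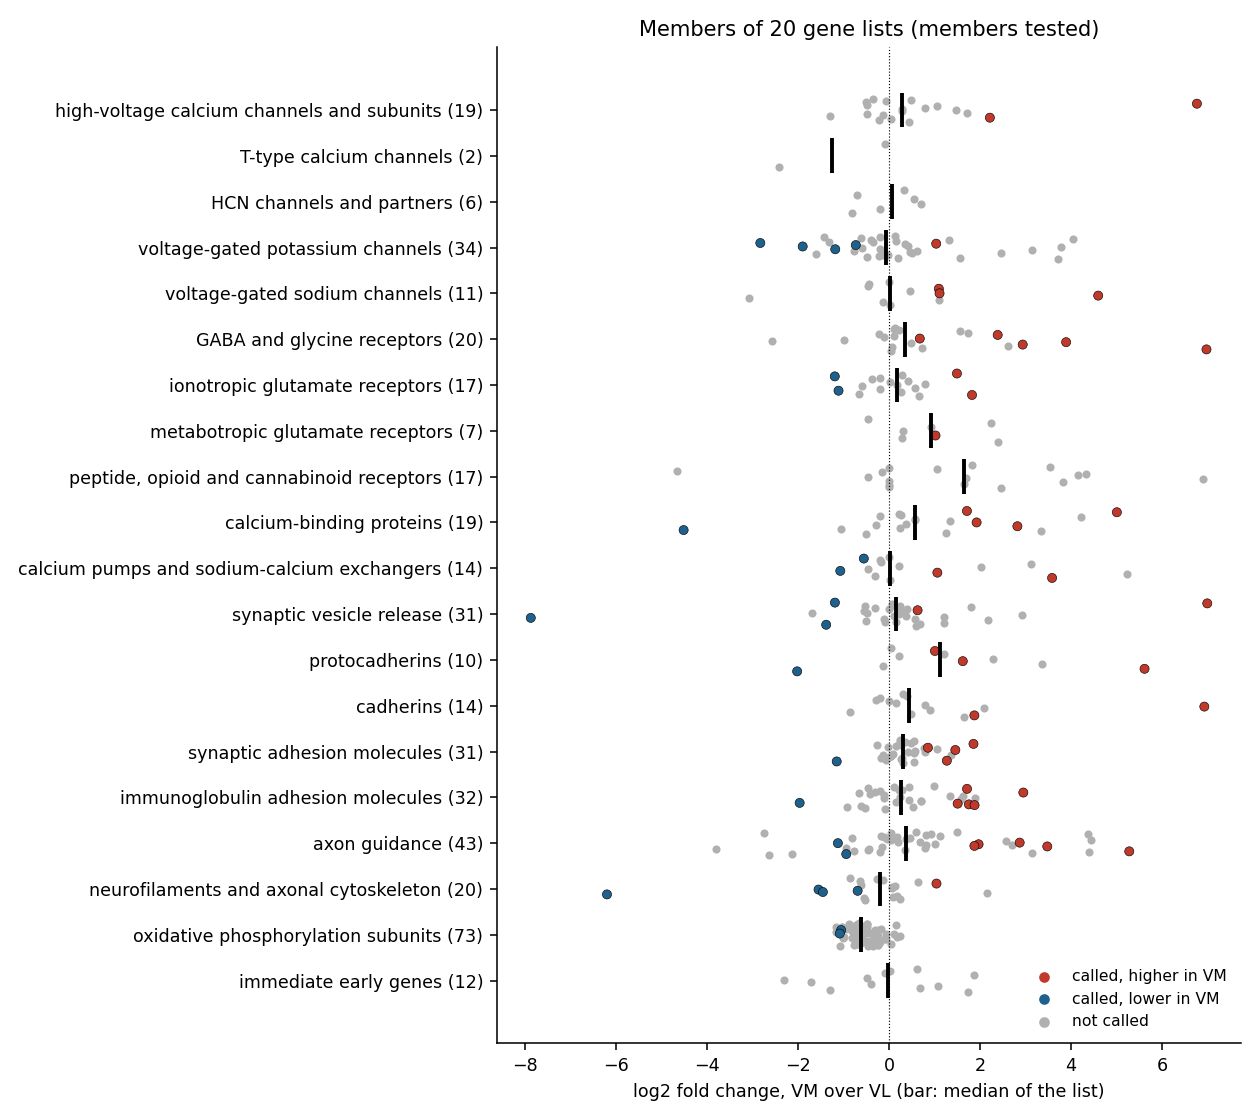
Log2 fold change, VM over VL, of every tested member of 20 gene lists (grey not called, red called higher in VM, blue called lower in VM), with a bar at each list's median. GABA and glycine receptors have 5 called members, all higher in VM, and the 73 oxidative phosphorylation subunits lie mostly below 0 with 2 called.

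VA (ventral anterior), the third nucleus labelled by DiI from M1, had 8 libraries. Its mean log2 level was nearer to VM than to VL in 160 of the 201 genes higher in VM and 65 of the 79 lower. These genes were selected for a difference between VM and VL, and no share over all genes tested is given. Rorb was at 145 ± 76.2 CPM and Pcdh9 at 224 ± 73.4 CPM in VA (SD, n = 8). On the first principal component of the 500 most variable genes over these 20 libraries, VM lay at 6.46 to 31.7, VL at -43.0 to -30.2 and VA at 4.07 to 27.1, and the component held 18.7% of the variance. With all genes that passed the filter, VM and VL overlapped on the first component (gap -22.2, against 36.7 with 500 genes). The second held 10.9%, and its lowest value, -67.6, belonged to 1 VA library.

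**Figure D4:**
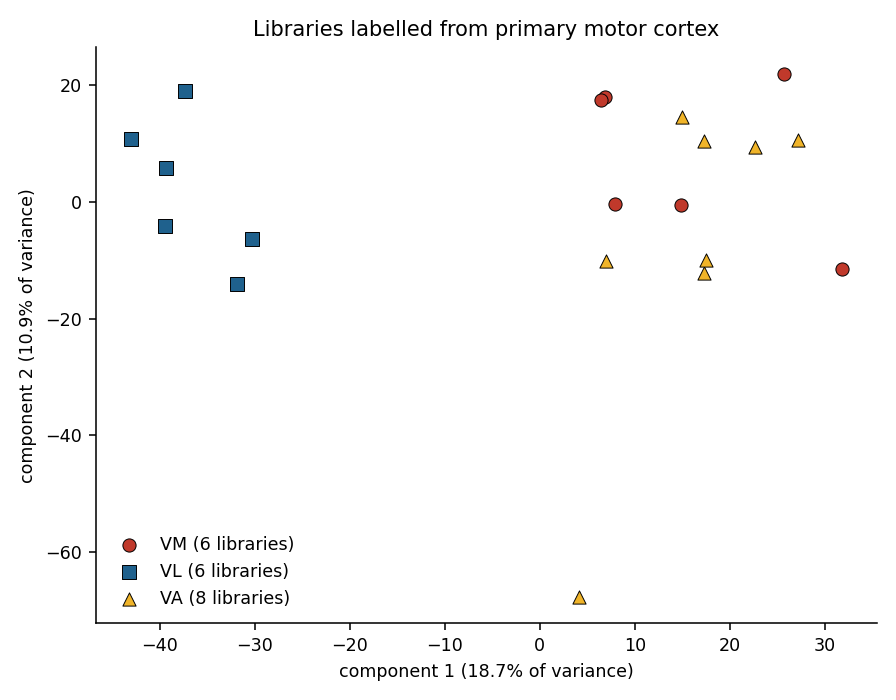
Principal components 1 and 2 of log2 CPM for the 6 VM, 6 VL and 8 VA libraries. VL lies at -43.0 to -30.2 on component 1, apart from VM at 6.46 to 31.7, and the VA libraries overlap VM on that component, which is drawn from the 500 most variable genes (VM and VL overlapped with all genes).

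Set among the 22 nuclei, each labelled from its own target and some by AAV rather than DiI, VL stood at an extreme more often than VM among the called genes. In 159 of the 201 genes higher in VM and in 56 of the 79 lower, the VL mean was farther than the VM mean from the median of the other 20 nuclei. VL was the lowest of the 22 in 45 of the 201, and VM the highest in 11. VL was the highest in 23 of the 79, and VM the lowest in 6. Called genes differ between VM and VL by selection, and the shares over all genes tested are not given. Rorb had its lowest mean of all nuclei in VM, at 139.6 ± 53.0 CPM (SD, n = 6), next to VA, and its second highest in VL, at 1144 ± 159 CPM (SD, n = 6), below VB (1360 CPM). Cacna1e ranked 13 in VM and 21 in VL, with its highest mean in RE at 556 CPM, and Adgrg6 ranked 8 in VM and 19 in VL, with its highest in IAD at 135 CPM. Ntrk3, Tmie, Cplx2, Htr7, Grin2d and Ncam1 had their lowest mean of the 22 in VL, and Pvalb, Cplx1, Tcf4 and Kcnc1 their highest. Etv1 and Slc1a2 had their highest mean in VM.

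**Figure D5:**
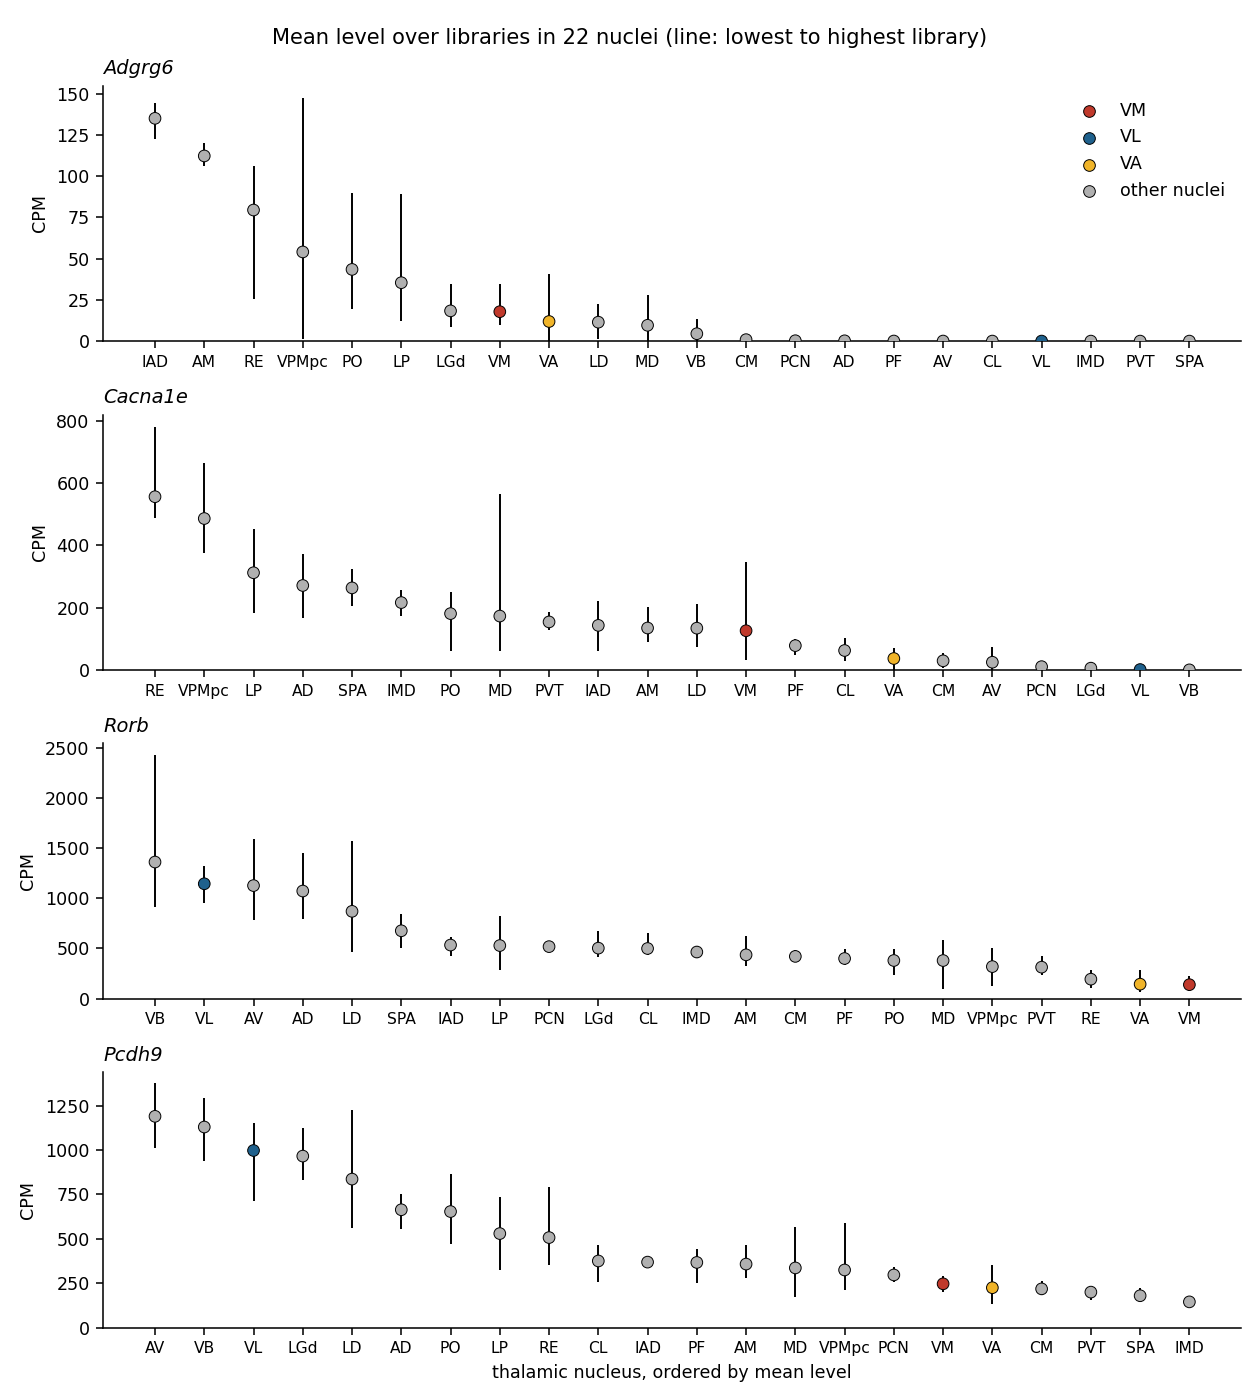
Mean level in CPM of Adgrg6, Cacna1e, Rorb and Pcdh9 in each of 22 thalamic nuclei, ordered from highest to lowest, with a line from the lowest to the highest library. VM is at the lowest end for Rorb (139.6 CPM) and VL near the highest (1144 CPM), while for Adgrg6 and Cacna1e several nuclei exceed VM and VL is near 0.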

How the data were processed

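Per the labels' protocols, labelled neurons were picked by hand, their RNA was purified with PicoPure columns after adding ERCC spike-ins, and Ovation RNA-seq v2 was used for amplification. That kit does not mark strand and adds no molecular identifiers, so reads of a gene and an antisense partner cannot be told apart and intervals cover counting error only. Reads were processed with cutadapt 1.16, STAR 2.5.3a and featureCounts 1.52 on mm10, per the submitters' processing notes. The deposited table holds raw counts for 16538 genes, with no normalization, beside a metadata table whose mapping rate, as deposited, is a fraction and which gives cells, animal, recorded sex and amplification date. Counts of the 12 libraries were 51.6 to 64.0% of the uniquely mapped reads.

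Genes were tested here with edgeR 4.0.16 (R 4.3.3): all 120 libraries in 1 fit with 24 groups, TMM factors, filterByExpr (minimum count 10, total 15), the two-sided quasi-likelihood F test of VM minus VL, and Benjamini-Hochberg adjustment over 16527 genes, with calls at an adjusted p under 0.05. CPM are TMM-scaled, and the SE of a log2 fold change is approximate, its size over the square root of F. Animals supplied several libraries, which the main test ignores. A fold against 1 to 3 counts has a 95% counting interval. Replicate numbers 4 to 6 are the same animals in both nuclei by the metadata and 1 to 3 are not. The correlation of same-numbered deviations from the group means was -0.0409 to 0.114 over 8571 genes.

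The members, gene lists and tests were chosen with earlier results of these data known. Genes named are called genes averaging 10 CPM or more in either nucleus, without overlap between ranges, of which the 14 largest changes each way were taken, up to 3 called members per list and direction, and a fixed set, 101 in all after leaving out items that are not reported here, of which the text uses part. Other called members and receptors named here were chosen after their values were seen. Alternatives within the fit of all groups were RLE factors, DESeq2 1.42.0, no filter, edgeR's newer dispersion method and leaving out each library. Others used the 12 libraries alone, without or with a replicate block, date or sex as a term. The limma 3.58.1 voom fit with animals as a random block also used the 12 alone. Recorded sex entered as written, so the pooled VL libraries 2 and 3 each formed a level of their own. They then gave no information on VM against VL. Chosen after the data were seen were the shared date and the 3 animals with an unpooled library of each nucleus (animal as a block). So were leaving out the animal whose recorded sex went against Xist, or VM libraries 2 and 4. All of these were fits of part of the 12 libraries. VL library 3 stayed in the fit without that animal. Promoters were matched by symbol to RefSeq (GRCm38.p6). The fit was tested on simulated counts.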

Additional observations from a re-analysis of the deposited data

Results flagged for a closer look

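In 17 of 176 groups of 6 libraries, 1 library lay far from the other 5, and chance alone flags about 1 in 20 groups. In VM these were Adcy1 at 254 CPM, Col25a1 at 129 CPM and Kcnd3 at 53.5 CPM in library 5, all below the rest, Cacng4 at 380.5 CPM and Stac2 at 20.1 CPM in library 4, Adcy8 at 3741 CPM in library 2 and Cox6a2 at 8.24 CPM in library 1, all above it. In VL the libraries above the rest held Slc24a2 at 5272 CPM and Cox7b at 967 CPM (library 4), Cdh8 at 85.6 CPM (library 2), Pcdh10 at 363 CPM (library 6) and Sptbn4 at 19599 CPM (library 1). Those below the rest held Etv1 at 48.4 CPM, Gbx2 at 2.86 CPM and Necab1 at 6.01 CPM (library 5), Nefh at 416 CPM (library 3) and Pcdh9 at 714 CPM (library 1). Xist was at 1132 CPM in VM library 4 and 704 CPM in VL library 4, both from an animal recorded as male. Xist was used in no comparison.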

How the results depend on the processing

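The 280 calls (201 higher and 79 lower in VM) became 681 (445 and 236) with DESeq2 and 522 (316 and 206) with edgeR's newer dispersion method. At a false discovery rate of 0.01 they were 135 (106 and 29). Totals were 288 with RLE factors and 278 without the filter on low counts. The 12 libraries alone gave 343 calls among 12129 genes tested, the baseline for the next totals. Fits of those 12 gave 243 with the amplification date as a term and 213 with recorded sex as a term. With limma-voom and animals as a random block the 12 gave 386. Leaving VM libraries 2 and 4 out of the 12 gave 225. The contrast in the fit with recorded sex rested on fewer VL libraries, since the pooled VL libraries 2 and 3 did not inform it. The lower count alone moved to 132 with the 12 libraries alone (343 in all), 170 with limma-voom and 129 in the 3 animals with an unpooled library of each nucleus (325 in all). Without the animal whose recorded sex went against Xist, also a fit within the 12 libraries, the higher count was 127 of 197. Leaving out single libraries gave 185 to 283 calls, 147 to 212 higher and 38 to 71 lower, with the lowest total without VM library 5 and 50 lower without VM library 4 or VL library 6. Of the 280 genes 137 stayed called whichever library was left out, and 276 were called by DESeq2.

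The replicate number as a block, on the 12 libraries alone, gave 329 calls, 132 of them lower in VM. Only number 5 correlated best with its own number, at 0.114. Of 91 called genes named by the rule, 38 had the same direction and call under every alternative run. Signs turned for the date term (Adcy8 -0.124, Cacna1g 0.116, Gbx2 0.000219), on the shared date (Adcy8 -0.125, Cacna1g 0.115, Gbx2 0.000942), with the sex term (Gbx2 0.113, Slc17a6 -0.0186), with limma-voom (Gbx2 0.0451), in those 3 animals (Cacna1g 0.158, Rgs4 -0.147, Slc17a6 -0.0515) and without VM libraries 2 and 4 (Gbx2 0.123). With single libraries left out, Gbx2 ran from -0.32 to 0.15 and Slc17a6 from -0.0323 to 0.118. On the component drawn from all genes that pass the filter, VM and VL overlapped (gap -22.2). Apart from Adcy8, the genes whose sign turned were not called in the main test. The causes were not tested.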
